A study of Homo sapiens with 6 samples.

Results

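The 10 genes described here encode the scaffolds, adaptors and angiomotins that act around and above the core kinases of the Hippo pathway. They were chosen by name and role, with no threshold on a measured value but with earlier results of these data known, and are NF2, AMOT, AMOTL1, AMOTL2, WWC1, WWC2, SAV1, MOB1A, MOB1B and PTPN14. All 10 were among the 46427 genes of the deposited table, and all 10 were among the 16966 genes that passed the filter on low counts. MDA-MB-231 is a metastatic, mesenchymal-like human breast cancer cell line. The cells, wild type by their label, were grown in low glucose DMEM with serum and transfected with either control-siRNA (3 libraries) or siRNA against WWTR1, the gene for TAZ (TAZ-siRNA, 3 libraries). Polyadenylated RNA was sequenced from each, and the question addressed is how the mRNAs of these genes differ when TAZ is depleted.

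In the Hippo pathway, the kinases STK3 and STK4 (MST2 and MST1) activate LATS1 and LATS2, which phosphorylate the co-activators YAP and TAZ and keep them out of the nucleus. SAV1 holds the MST kinases together with their substrates, MOB1A and MOB1B bind and activate LATS kinases, and NF2 (Merlin) and the WWC proteins recruit LATS kinases to the cell cortex. Angiomotins and PTPN14 bind the WW domains of YAP or TAZ and can hold them at junctions or in the cytoplasm. MDA-MB-231 is known as an NF2-mutant line, so NF2 values below are mRNA levels and do not speak to functional Merlin. In bulk RNA, fewer cells expressing a gene and less RNA per cell cannot be told apart.

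WWTR1 was represented by 12828, 11808 and 9228 estimated counts with control-siRNA and by 1263, 840 and 843 with TAZ-siRNA. This was a fall from 191 ± 1.46 to 16.5 ± 1.21 CPM (SD, n = 3), where CPM is the count scaled to a common library size. The fold change on the log2 scale was -3.53 (SE 0.0613, edgeR adjusted p = 2.47e-10). YAP1 stood at 150 ± 8.79 and 150 ± 6.32 CPM, a log2 fold change of 0.00 with a 95% interval of -0.12 to 0.13 (edgeR adjusted p = 0.974). Total counts per library lay between 48307548 and 71749634, at which 3 counts correspond to 0.0411 to 0.0618 CPM. The cells had KRT8 at 585 to 619 TPM and VIM at 3610 to 3920 TPM. CDH1, the epithelial cadherin, was at 0.0146 to 0.252 TPM, and EPCAM at 1.14 to 2.25 TPM, although the label calls the cells epithelial. PTPRC and CD3E, markers of immune cells, were listed at 0 in all 6 libraries. The 8 markers of other cell types, 4 of them under 1 TPM, summed to 104 to 109 TPM with control-siRNA and 85.6 to 90.3 TPM with TAZ-siRNA, most of it CD68, a lysosomal protein not limited to macrophages. Of the 4 that were tested, CD68 fell (log2 fold change -0.42, edgeR adjusted p = 0.00185), COL1A1 and PDGFRB rose (0.42 and 0.44, adjusted p = 0.00703 and 0.00493) and PECAM1 did not pass. The 6 epithelial markers summed to 2010 to 2060 TPM with control-siRNA and 1860 to 1940 TPM with TAZ-siRNA, where KRT7 fell (-0.49, adjusted p = 5.44e-04) and KRT19 rose (0.37, adjusted p = 0.00123). Of 5 mesenchymal markers, which summed to 3910 to 4110 and 4140 to 4260 TPM, SNAI2 rose (0.55, adjusted p = 0.00440). VIM, ZEB1, CDH2 and FN1 did not pass. Most of the sum was VIM, which had 3574 CPM with control-siRNA and 3400 CPM with TAZ-siRNA (log2 fold change -0.07, edgeR adjusted p = 0.46). The higher sum in TPM was thus not matched by VIM in CPM. The part of these markers in the results below was not tested.

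One library of each group tended to lie low for the scaffold genes. Control-siRNA replicate 3 had the lowest CPM of its group for 8 of the 10 genes, against 36.9% of all genes tested. TAZ-siRNA replicate 3 was likewise lowest for 8 of the 10, against 41.4% of all genes tested. Leaving out TAZ-siRNA replicate 3 raised the number of genes called among all genes from 3749 to 5928, whereas leaving out any other library lowered it to between 1937 and 2687. For each of the 10 genes the range with single libraries left out is given below, and the part that these libraries play in the results was not tested. Each group consisted of 3 cell preparations of this 1 cell line, per the study's methods, and the p-values measure the spread between them. Replicates are numbered 1 to 3 as in the columns of values and the sample descriptions, and correspond to the numbers 3 to 5 in the sample titles, so that replicate 3 here is titled 5.

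The DNA around the start sites of 5 of the genes is shown first, because AMOTL2, WWC2, WWC1 and AMOTL1 changed in opposite directions and PTPN14 carries the same short motif without passing the test. The windows run from 250 bases before to 50 bases after the RefSeq start on GRCh38.p14, 5′ to 3′ on the strand of the gene. Capitals mark GGAATG or its reverse complement CATTCC, the core letters bound by TEAD factors, the DNA-binding partners of YAP and TAZ. Both strands were searched.
AMOTL2 (chr3:134374398-134374697, minus strand): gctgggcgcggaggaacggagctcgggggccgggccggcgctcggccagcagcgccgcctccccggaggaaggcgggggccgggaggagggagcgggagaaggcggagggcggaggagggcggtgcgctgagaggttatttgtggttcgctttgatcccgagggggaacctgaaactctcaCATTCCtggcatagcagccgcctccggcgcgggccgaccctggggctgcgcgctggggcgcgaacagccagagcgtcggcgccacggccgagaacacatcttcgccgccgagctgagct
WWC2 (chr4:183099007-183099306, plus strand): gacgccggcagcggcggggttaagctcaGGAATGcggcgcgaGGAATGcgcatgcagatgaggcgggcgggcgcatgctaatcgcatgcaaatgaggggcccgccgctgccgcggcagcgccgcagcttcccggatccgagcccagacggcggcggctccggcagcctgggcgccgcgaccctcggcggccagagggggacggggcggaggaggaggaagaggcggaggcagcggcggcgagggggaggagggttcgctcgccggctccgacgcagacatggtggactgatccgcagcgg
PTPN14 (chr1:214551553-214551852, minus strand): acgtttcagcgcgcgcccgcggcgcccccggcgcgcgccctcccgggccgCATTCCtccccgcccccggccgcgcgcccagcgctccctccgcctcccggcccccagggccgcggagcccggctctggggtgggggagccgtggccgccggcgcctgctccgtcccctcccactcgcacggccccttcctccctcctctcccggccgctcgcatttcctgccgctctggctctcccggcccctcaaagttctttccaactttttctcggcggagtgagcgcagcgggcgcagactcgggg
WWC1 (chr5:168291395-168291694, plus strand): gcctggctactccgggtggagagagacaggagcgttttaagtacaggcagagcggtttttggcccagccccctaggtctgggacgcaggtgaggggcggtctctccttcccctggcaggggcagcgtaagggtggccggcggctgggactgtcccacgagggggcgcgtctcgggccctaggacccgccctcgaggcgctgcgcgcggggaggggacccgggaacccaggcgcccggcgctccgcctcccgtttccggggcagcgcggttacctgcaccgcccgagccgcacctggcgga
AMOTL1 (chr11:94768106-94768405, plus strand): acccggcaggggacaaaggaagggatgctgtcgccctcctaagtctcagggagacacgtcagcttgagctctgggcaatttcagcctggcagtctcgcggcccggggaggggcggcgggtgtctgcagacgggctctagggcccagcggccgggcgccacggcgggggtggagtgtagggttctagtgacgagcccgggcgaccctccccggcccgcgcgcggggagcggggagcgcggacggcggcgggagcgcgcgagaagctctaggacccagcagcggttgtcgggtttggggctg

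The motif was present in 3 of the 13 windows listed for the 10 genes, against 14.0% of all 35116 windows of this length. In AMOTL2 it began 69 bases before the start, in PTPN14 200 bases before it, and in WWC2 it occurred at 222 and at 208 bases before it. The AMOTL2 window with the motif held the starts of transcripts that made up 96.0 ± 1.47% of AMOTL2 FPKM with control-siRNA and 92.8 ± 2.91% with TAZ-siRNA (SD, n = 3). In WWC2 the single transcript that starts in the printed window, NM_024949, held 81.6 ± 14.6% and 79.8 ± 19.0% of FPKM. Another AMOTL2 window, at chr3:134375368-134375667, held no motif and only 0.268 ± 0.464% of control-siRNA FPKM. The windows of NF2, AMOT, AMOTL1, WWC1, SAV1, MOB1A and MOB1B did not hold these letters. This says nothing about binding, either at the printed sites or elsewhere in these genes. Of the 13 scaffold windows, 12 held more G and C than the median of 58.7% over all windows, at up to 77.3%, and the AMOTL2 window without the motif held 56.7%.

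Of the 10 genes, 5 passed the test and 5 did not (edgeR quasi-likelihood test, adjusted p under 0.05). The background in this comparison was 22.1% of all genes tested, of which 11.9% of genes were higher and 10.2% lower with TAZ-siRNA. AMOTL2, WWC1, NF2 and WWC2 fell and AMOTL1 rose, while AMOT, SAV1, MOB1A, MOB1B and PTPN14 did not pass. The same 5 genes had groups that did not overlap, against 39.6% of all genes tested (20.0% with the TAZ-siRNA libraries higher and 19.6% lower). At an unadjusted p under 0.05 there were 6, the 5 and MOB1B, against 35.8% of all genes. AMOTL2 and WWC1 were the 2 genes that changed by 1.5-fold or more, a size reached with a call by 4.42% of all genes. The median log2 fold change of the 10 was 0.03 and their median absolute log2 fold change 0.23, against -0.01 and 0.17 over all genes tested. The exact two-sided permutation test on log2 CPM gave 0.1 for each of the 5 genes called, which is the smallest p that 3 libraries against 3 allow.

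**Figure D1:**
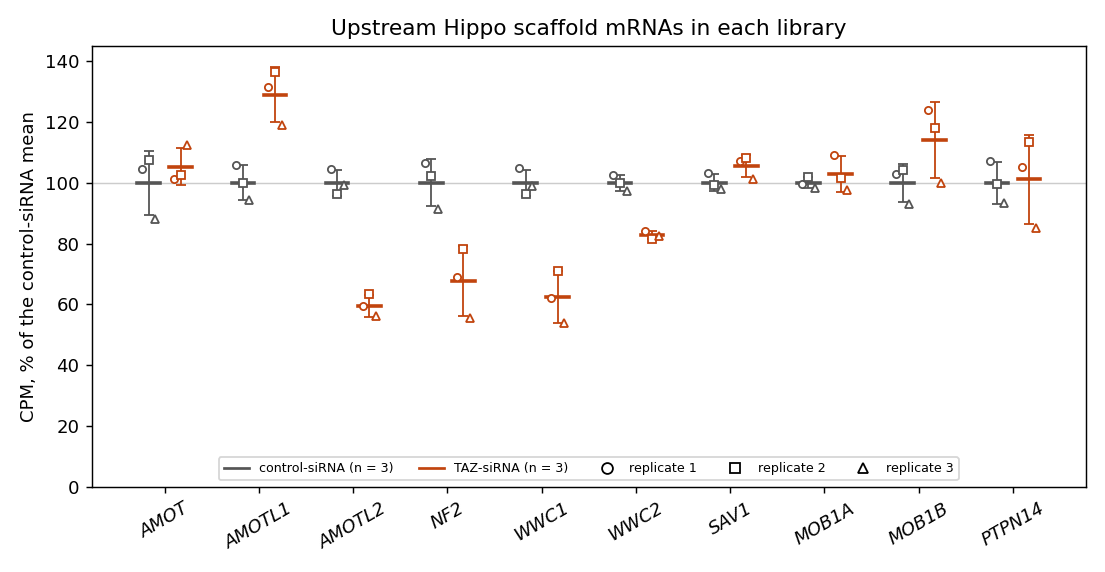
CPM of each scaffold gene in each library, as a percentage of the control-siRNA mean (vertical axis, from 0), with horizontal bars for group means, error bars for 1 SD and symbols for replicates (n = 3 per group). AMOTL2, NF2, WWC1 and WWC2 sit below their controls in all 3 TAZ-siRNA libraries and AMOTL1 above, whereas the groups overlap for the other 5 genes.

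The angiomotins, which can bind YAP and TAZ and also associate with tight junctions and with actin filaments, did not move together. AMOTL2 (gene ID 51421, chr3:134355345-134375417, minus strand) was the second most abundant of the 10 mRNAs in control cells. It had 172.6, 158.7 and 163.6 CPM with control-siRNA and 98.1, 104.4 and 92.5 CPM with TAZ-siRNA. All TAZ-siRNA libraries were far below all control-siRNA libraries. AMOTL2 therefore fell to 59.6% of its control level, a log2 fold change of -0.75 (SE 0.0568, 95% interval -0.87 to -0.62, edgeR adjusted p = 6.32e-05). Leaving out single libraries gave -0.79 to -0.70, with all 6 calls kept, and the value was -0.70 without TAZ-siRNA replicate 3. AMOTL2 is itself widely used as a readout of YAP and TAZ activity.

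AMOTL1 (gene ID 154810, chr11:94706418-94876748, plus strand) moved the other way. It had 84.0, 79.5 and 74.9 CPM with control-siRNA and 104.5, 108.3 and 94.4 CPM with TAZ-siRNA, so that the lowest TAZ-siRNA library lay above the highest control. The rise was to 129% of control, a log2 fold change of 0.37 (SE 0.063, 95% interval 0.23 to 0.50, edgeR adjusted p = 0.00281). The range with single libraries left out was 0.32 to 0.42, with 6 of 6 calls kept. After a GC and length correction the log2 fold change was 0.23, still called.

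AMOT (gene ID 154796, chrX:112774503-112840946, minus strand), the founding angiomotin, was low in these cells. Its CPM was 8.17, 8.39 and 6.88 with control-siRNA and 7.90, 8.01 and 8.77 with TAZ-siRNA, and the groups overlapped. The log2 fold change of 0.07 had a 95% interval of -0.15 to 0.29 (SE 0.0999, edgeR adjusted p = 0.657). The fall of AMOTL2 lay outside this interval, whereas the lower end of the AMOTL1 interval lay inside it. The sign was not stable, since leaving out control-siRNA replicate 3 gave -0.01, the lowest of a range up to 0.12.

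Because AMOTL2 fell and AMOTL1 rose, the makeup of the angiomotin family differed between groups. On the TPM scale, which corrects for transcript length, the 3 genes summed to 103.6, 95.6 and 92.8 TPM with control-siRNA and to 79.6, 81.5 and 67.4 TPM with TAZ-siRNA. The sum was thus 78.2% of control in TPM, a smaller decrease than that of AMOTL2 alone, from 75.6 to 47.6 TPM. AMOTL2 made up 77.6 ± 0.951% of family TPM with control-siRNA and 62.5 ± 0.0844% with TAZ-siRNA. AMOTL1 made up 20.0 ± 0.734% and 34.3 ± 0.467%, and AMOT 2.36 ± 0.239% and 3.27 ± 0.388% (SD, n = 3). AMOTL2 remained the most abundant angiomotin in every library. Its TPM was 3.85, 3.72 and 4.10 times that of AMOTL1 with control-siRNA and 1.81, 1.80 and 1.85 times that of AMOTL1 with TAZ-siRNA. The groups did not overlap for this ratio (exact two-sided permutation p = 0.1). That follows from AMOTL2 TPM being lower and AMOTL1 TPM higher in every TAZ-siRNA library, so it adds no separate test. TAZ-siRNA replicate 3, which was low for both genes, had the same ratio as its group.

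**Figure D2:**
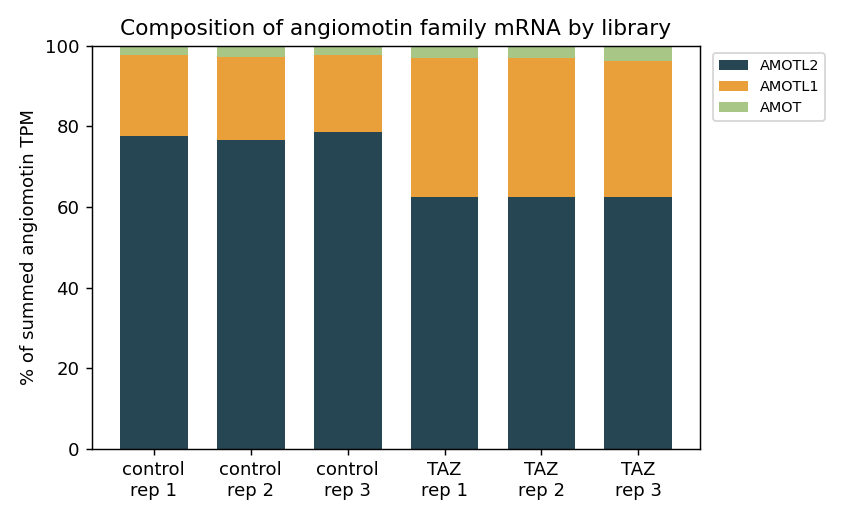
Share of AMOTL2, AMOTL1 and AMOT in the summed TPM of the 3 angiomotins (vertical axis, percent), 1 stacked bar per library. The AMOTL2 share is 76.7 to 78.6% in the control-siRNA libraries and 62.4 to 62.6% in the TAZ-siRNA libraries, and AMOTL1 takes most of the difference.

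Both WWC scaffolds fell, WWC1 to 62.3% and WWC2 to 82.7% of control. WWC1 (KIBRA, gene ID 23286, chr5:168291645-168472303, plus strand) had 6.82, 6.28 and 6.45 CPM with control-siRNA and 4.05, 4.62 and 3.51 CPM with TAZ-siRNA. These values rest on 196 to 455 counts per library, the fewest of the 10 genes in every library, and the groups were well apart. The log2 fold change was -0.69 (SE 0.118, 95% interval -0.95 to -0.43, edgeR adjusted p = 0.00278), 62.3% of control. It ranged from -0.78 to -0.59 with single libraries left out and stayed called in all 6. On the log2(FPKM + 1) scale, which understates the change of low genes, limma gave -0.31 (adjusted p = 0.0228).

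WWC2 (gene ID 80014, chr4:183098640-183320777, plus strand) was more abundant than WWC1. It had 58.7, 57.1 and 55.6 CPM with control-siRNA and 48.1, 46.6 and 47.1 CPM with TAZ-siRNA, with little spread in either group. Its log2 fold change was -0.27 (SE 0.0497, 95% interval -0.38 to -0.16, edgeR adjusted p = 0.00369), 82.7% of control. The call held with each library left out (-0.29 to -0.25), but limma on log2(FPKM + 1) gave -0.22 with an adjusted p of 0.0506. WWC2 shares 2177 of its 10002 exon bases with CLDN22 on the opposite strand, and CLDN22 had 0 or 1 count per library. WWC1 and WWC2 together, without WWC3, had 16.9 ± 0.549 TPM with control-siRNA and 14.1 ± 1.23 TPM with TAZ-siRNA, and the WWC1 share of this sum was 13.9 ± 1.19% and 10.5 ± 1.75% (SD, n = 3). WWC3, the remaining paralogue, had 87.9 ± 2.34 CPM and 85.3 ± 6.96 CPM (log2 fold change -0.04, edgeR adjusted p = 0.655). After the GC and length correction WWC3 was called at -0.18 (adjusted p = 0.00389), and without TAZ-siRNA replicate 3 its value was 0.02.

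NF2, which links the cortical cytoskeleton to LATS activation, also fell. NF2 (gene ID 4771, chr22:29603556-29698600, plus strand) had 28.4, 27.3 and 24.5 CPM with control-siRNA and 18.5, 20.9 and 14.9 CPM with TAZ-siRNA. The groups did not overlap, and TAZ-siRNA replicate 3 was the lowest library. The log2 fold change was -0.57 (SE 0.112, 95% interval -0.82 to -0.32, edgeR adjusted p = 0.00648), 67.7% of control. Without TAZ-siRNA replicate 3 it was -0.44 (adjusted p = 3.95e-04), and the range over single libraries left out was -0.68 to -0.44, always called. The ERM proteins ezrin, moesin and radixin are the closest relatives of Merlin. EZR, MSN and RDX did not pass, with log2 fold changes of -0.11, -0.08 and 0.09 and edgeR adjusted p-values of 0.201, 0.340 and 0.193. EZR was called without TAZ-siRNA replicate 3, at -0.16 (adjusted p = 0.0175). With the replicate block and the GC and length correction together, EZR and MSN were both called, each at -0.15 (adjusted p = 0.0185 and 0.0108).

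The adaptors of the core kinases did not pass the test. SAV1 (gene ID 60485, chr14:50633104-50668306, minus strand) had 103.7, 99.7 and 98.5 CPM with control-siRNA and 107.9, 108.8 and 102.0 CPM with TAZ-siRNA. The groups overlapped and the log2 fold change was 0.08 (SE 0.0478, 95% interval -0.03 to 0.18, edgeR adjusted p = 0.271). It ran from 0.06 to 0.11 with single libraries left out and was not called in any of the 6. SAV1 shares 1789 of its 5605 exon bases with ATL1 on the opposite strand. ATL1 rose from 10.8 to 15.5 CPM (log2 fold change 0.51, edgeR adjusted p = 0.00194), and no source used here says if strand entered the counting.

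MOB1A (gene ID 55233, chr2:74152528-74178879, minus strand) was the most abundant of the 10 mRNAs. It had 203.5, 208.3 and 200.7 CPM with control-siRNA and 223.0, 207.6 and 199.5 CPM with TAZ-siRNA, which overlapped. The log2 fold change was 0.04 (SE 0.054, 95% interval -0.08 to 0.16, edgeR adjusted p = 0.631), a narrow interval around 0. Leaving out single libraries gave -0.00256 to 0.08. MOB1B (gene ID 92597, chr4:70901970-70988174, plus strand) had 65.7, 66.6 and 59.3 CPM with control-siRNA and 79.1, 75.5 and 63.9 CPM with TAZ-siRNA. TAZ-siRNA replicates 1 and 2 were above all controls and TAZ-siRNA replicate 3 lay among them. The log2 fold change was 0.19 (SE 0.0793, 95% interval 0.01 to 0.36), and the p of 0.0375 became 0.115 after adjustment by edgeR. MOB1B was the 1 scaffold gene whose call depended on a single library. Without TAZ-siRNA replicate 3 it passed at 0.28 (adjusted p = 0.00107), and without any other library it did not, the lowest value being 0.13. With all libraries, MOB1B also passed under the replicate block (0.19, adjusted p = 0.0126). It passed as well under the block and the GC and length correction together (0.12, adjusted p = 0.0383).

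PTPN14 (gene ID 5784, chr1:214348700-214551677, minus strand), a tyrosine phosphatase that binds YAP and LATS1, varied more within groups than between them. It had 139.7, 129.6 and 121.7 CPM with control-siRNA and 136.9, 147.7 and 110.8 CPM with TAZ-siRNA. The TAZ-siRNA libraries spanned the control libraries on both sides. The log2 fold change of 0.02 had a 95% interval of -0.20 to 0.23 (SE 0.0973, edgeR adjusted p = 0.928), and its sign changed with 3 of the 6 libraries left out (range -0.07 to 0.13). PTPN21, the related phosphatase, rose by a log2 fold change of 0.30 (SE 0.0796, edgeR adjusted p = 0.0215). That call was lost without 4 of the 6 libraries, control-siRNA replicates 1 and 3 and TAZ-siRNA replicates 1 and 2, with adjusted p-values up to 0.0979. It was also lost after the GC and length correction, where the value was 0.18 (adjusted p = 0.0629), with that correction and the replicate block (adjusted p = 0.0525), and with limma (adjusted p = 0.0874 and 0.0869 with 1 or 0.1 added to FPKM).

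**Figure D3:**
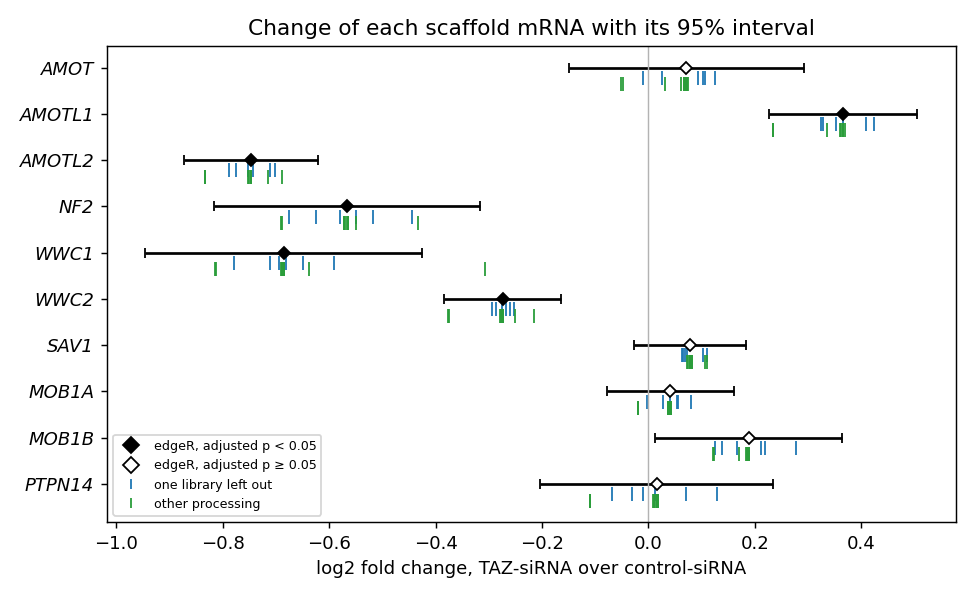
Log2 fold change of each scaffold gene, TAZ-siRNA over control-siRNA (horizontal axis), with the 95% interval as a bar and filled diamonds for edgeR adjusted p under 0.05. Blue ticks leave out 1 library each and green ticks use other processing. The intervals of AMOTL2, WWC1, NF2 and WWC2 lie below 0 and those of AMOTL1 and MOB1B above it, of which MOB1B does not pass after adjustment.

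The order of abundance was set by TPM. In control-siRNA cells MOB1A (90.5 ± 3.62 TPM), AMOTL2 (75.6 ± 4.17 TPM) and SAV1 (66.6 ± 4.38 TPM) were the most abundant, each separate from the next. PTPN14 (21.3 ± 1.92 TPM), MOB1B (20.6 ± 1.65 TPM) and AMOTL1 (19.5 ± 1.55 TPM) followed, with ranges that overlapped between neighbours. WWC2 had 14.5 ± 0.398 TPM and NF2 9.88 ± 0.990 TPM, both separate from their neighbours. WWC1 (2.34 ± 0.253 TPM) and AMOT (2.30 ± 0.254 TPM) could not be ordered (SD, n = 3 for all). The most abundant mRNA was thus 39.4 times the least abundant. With TAZ-siRNA, AMOTL2 lay at 42.2 to 50.8 TPM and SAV1 at 67.2 to 79.4 TPM, so these genes exchanged places. AMOTL1 lay at 22.7 to 28.2 TPM and WWC1 at 1.11 to 1.69 TPM, below every AMOT value of 2.44 to 2.51 TPM.

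**Figure D4:**
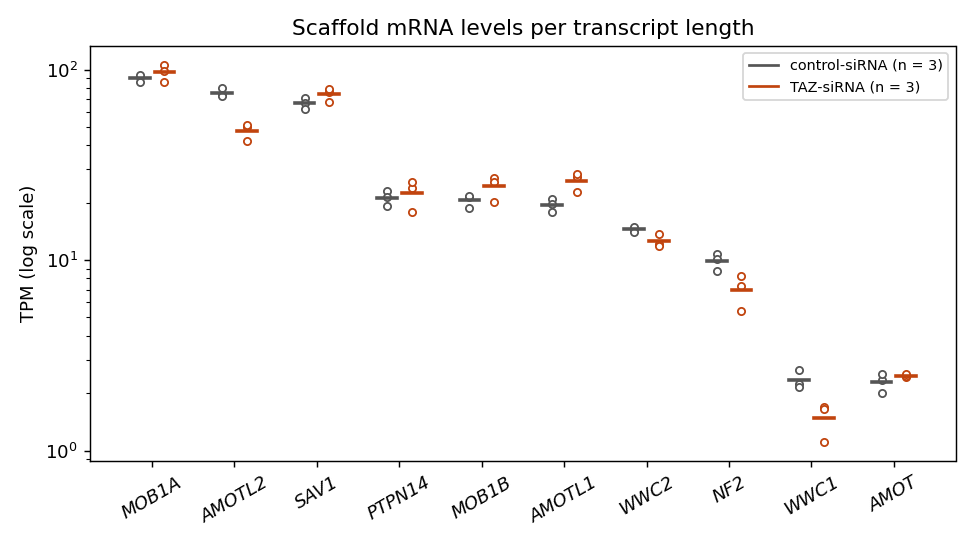
TPM of the 10 scaffold genes (vertical log axis), ordered by their control-siRNA mean, with 1 circle per library and a bar for the mean of each group (n = 3). AMOTL2 drops from 72.99 to 80.38 TPM in control-siRNA libraries to 42.17 to 50.84 TPM in TAZ-siRNA libraries, below SAV1.

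Transcript estimates were much noisier than gene estimates, with a biological coefficient of variation of 84.4% against 8.04%. The 10 genes had 67 listed transcripts, of which 46 were tested, and edgeR called 0 of them, against 0.0170% of all transcripts tested. At an unadjusted p under 0.05 there were 3, against 6.60% of all transcripts, and 6 had groups that did not overlap, against 16.1%. DESeq2 called 1, NM_001278685 of AMOTL2, against 3.56% of all transcripts. This transcript held 10.3, 18.0 and 24.8% of AMOTL2 FPKM with control-siRNA and 11.0, 7.04 and 4.84% with TAZ-siRNA. Its log2 fold change was -1.89 by edgeR (unadjusted p = 0.00779, adjusted p = 0.427). The main AMOTL2 transcript, NM_016201, held 51.5 ± 7.02% and 45.3 ± 18.8%, and XM_006713654 held 28.6, 23.3 and 28.3% with control-siRNA and 57.8, 29.7 and 32.1% with TAZ-siRNA. The high value of XM_006713654 was in TAZ-siRNA replicate 1 alone.

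Other genes differed in how firmly a main transcript could be assigned. PTPN14 was almost wholly NM_005401, at 98.0 to 99.3% of its FPKM in every library. SAV1 was led by NM_021818 at 68.2 to 89.1%, and MOB1B by NM_173468 at 58.5 to 77.6%. AMOTL1 was led by NM_130847 at 47.0 to 65.5%, and NF2 by NM_016418 at 57.4 ± 10.4% and 53.5 ± 11.1% (SD, n = 3). WWC2 had NM_024949 at 60.1 to 98.4%. WWC1 and AMOT, the genes with fewest counts, had no transcript with a steady share. The share of XM_005262087 in AMOT ran from 34.5 to 92.0%, and that of XM_005265853 in WWC1 from 13.9 to 50.9%. MOB1A stood apart, since NM_018221 held 80.9 to 87.6% in 5 libraries but 9.50% in TAZ-siRNA replicate 3, where XM_024452973 held 83.0%. MOB1A summed over transcripts did not show this, at 199.5 CPM in that library.

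The rest of the pathway was examined as 6 lists of 92 distinct genes. The core and alternative Hippo kinases had 4 genes higher and 2 lower of 15 tested, with a median log2 fold change of 0.11. TNIK, a MAP4K-family kinase, rose by 0.69 (SE 0.0879, edgeR adjusted p = 5.98e-04) and MAP4K4 by 0.32 (adjusted p = 0.00128). TNIK was at 0.42 with limma on log2(FPKM + 1) and MAP4K4 at 0.21 after the GC and length correction, both still called. STK4, which SAV1 binds, fell by 0.20 (adjusted p = 0.0143), a call lost without control-siRNA replicate 2 or 3 and with limma (adjusted p = 0.0788 and 0.0760), while STK3 did not pass at 0.11 (adjusted p = 0.237). LATS1 and LATS2, the partners of MOB1, did not pass either, at 0.18 and 0.02 (adjusted p = 0.134 and 0.808). After the GC and length correction LATS1 was at 0.08 (adjusted p = 0.298). Like MOB1B, it was called without TAZ-siRNA replicate 3, at 0.27 (adjusted p = 4.24e-04). The number of kinases called was 10 without that library and 2 to 3 without control-siRNA replicates 1, 2 or 3 or TAZ-siRNA replicate 1. It was 2 with limma on log2(FPKM + 1) and on log2(FPKM + 0.1), beside 2813 and 2841 calls among all genes.

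Among 23 tested genes of polarity and junction complexes upstream of the pathway, 2 were higher and 4 lower, with a median of 0.01. FRMD6, a FERM-domain protein that acts with NF2 and WWC1, fell by a log2 fold change of -0.62 (edgeR adjusted p = 1.12e-04). MPP5 (PALS1), which joins Crumbs complexes to PATJ, fell to a log2 fold change of -0.57 (adjusted p = 7.77e-04). The count was 3 without control-siRNA replicate 2 or 3. Of 12 genes of STRIPAK, the phosphatase complex that opposes STK3 and STK4, only STRN3 was called, at 0.19 (adjusted p = 0.0437), and the call was lost without 5 of the libraries, TAZ-siRNA replicate 3 being the exception, and with limma or no filter on low counts. The STRIPAK count was 3 after the GC and length correction, 3 with the replicate block and 4 with both. Paralogues of the scaffold genes had 2 higher and 0 lower of 10, PTPN21 and MOB3A, the latter at 0.23 (adjusted p = 0.0202). The MOB3A call was lost without control-siRNA replicate 1 or 2 or TAZ-siRNA replicate 2. The paralogue count was 4 without TAZ-siRNA replicate 3, 0 or 1 without any other library, and 5 with the replicate block and the GC and length correction together.

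Of 11 ubiquitin ligases and related factors that control the turnover of scaffold proteins, 1 was higher and 2 lower. NEDD4L fell to a log2 fold change of -0.75 (edgeR adjusted p = 6.41e-05) and WWP1 rose by 0.38 (adjusted p = 0.00130), both members of the family whose ligases bind PPxY motifs, as found in angiomotins. Without TAZ-siRNA replicate 3, 5 of the 11 were called, as also after the GC and length correction, alone or with the replicate block. With the replicate block alone the count was 4. Of 20 YAP/TAZ target genes, 10 were lower and 0 higher, with a median of -0.29. ANKRD1 fell to a log2 fold change of -2.93 (adjusted p = 6.06e-08) and CCN1 to -1.42 (adjusted p = 1.05e-04), both beyond the fall of AMOTL2. TNIK, MAP4K4, FRMD6, MPP5, NEDD4L, WWP1, ANKRD1 and CCN1 were each called with every single library left out. The counts of these lists over all 6 libraries are to be read against the 22.1% of all genes called. Those without TAZ-siRNA replicate 3 stand beside 5928 calls among all genes, and those without another library beside 1937 to 2687. Calls among all genes were 4642 after the GC and length correction, 5122 with the replicate block and 5183 with both, beside which the list counts under those settings stand.

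**Figure D5:**
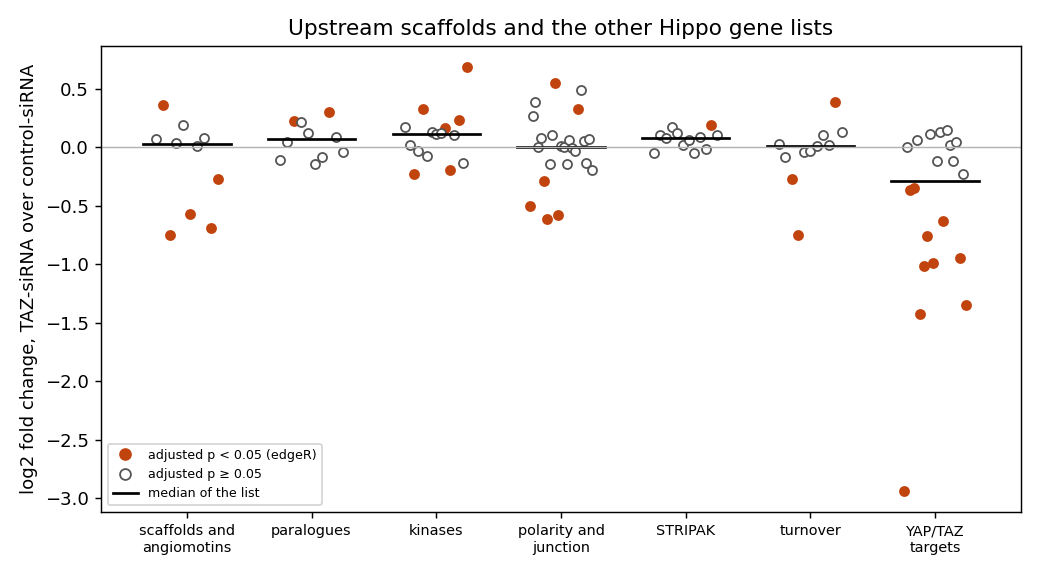
Log2 fold change, TAZ-siRNA over control-siRNA (vertical axis), of each tested gene in the scaffold set and in 6 other Hippo gene lists, with filled circles for edgeR adjusted p under 0.05 and a bar for the median of each list. The scaffold set has 1 gene called above 0 and 4 below, and the YAP/TAZ targets have 10 called below 0 and 0 above.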

How the data were processed

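Stranded mRNA libraries of MDA-MB-231 cells, 3 with control-siRNA and 3 with TAZ-siRNA, were sequenced. Alignment of trimmed reads to GRCh38 was done by the authors with HISAT2, and abundance was estimated for RefSeq transcripts with StringTie, per the paper. The submitters' processing notes also name Bowtie and the mouse build mm8 beside GRCh38, a difference that could not be settled here. The estimated count that the authors deposited per gene and transcript derives from coverage and is a whole number. Deposited FPKM takes length and library size into account. Deposited TPM takes length into account and has a fixed total per library. Total counts and the precision they give stand in the report. Intervals and floors cover 95% and 3 counts.

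Groups were compared with edgeR 4.0.16 in R 4.3.3 (TMM factors, filterByExpr with minimum count 10, quasi-likelihood F-test with robust dispersions, Benjamini-Hochberg over all genes tested). Normalization factors were 0.978 to 1.02. Alternatives were DESeq2 1.42.0, other scalings and filters, a replicate block, a spline correction (5 degrees of freedom) for GC content and length (both known for 89.7% of genes tested), limma 3.58.1 on log2 FPKM with 1 or 0.1 added, a threshold of 0.01 and leaving out each library. The alternatives for named genes outside the 10 were added after their values were seen. Methods were tested on simulated data, where the share of false calls was above the nominal level. Calls near the threshold therefore carry more doubt than their adjusted p states. That share was judged pooled over simulations, a rule set after a single simulation had failed the limit. The 10 genes, which no measured threshold selected, and all lists were chosen with earlier results of these data known. Named were the 10 genes, WWTR1 and YAP1, close relatives and core kinases (WWC3, PTPN21, EZR, RDX, MSN, LATS1, LATS2, STK3, STK4), the 2 largest called changes of each list, and transcripts with at least 10% of a gene's FPKM. Protein-coding genes whose exons overlap a scaffold gene, and markers of cell type, were named beside them. Shorter overlaps with noncoding genes and pseudogenes in AMOT, AMOTL1, AMOTL2 and PTPN14 covered 71 to 1213 exon bases each. Start-site windows came from RefSeq on GRCh38.p14 and coordinates from the deposited transcript table.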

Additional observations from a re-analysis of the deposited data

How the results depend on the processing

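The 5 calls among the 10 scaffold genes held under 14 or more of 16 alternatives each, and the number called was 4 to 6. Of 160 values of these genes under alternatives, 144 kept direction and call. WWC2 missed the threshold with limma on log2(FPKM + 1) (-0.22) and log2(FPKM + 0.1) (-0.25). None of the values that changed sign passed the test. With the GC and length correction, first alone and then with the replicate block, AMOT was -0.0477 and -0.0510, MOB1A -0.0199 and -0.0201, PTPN14 -0.109 and -0.110, YAP1 -0.0834 and -0.0827, and LATS2 -0.0902 and -0.0928. With single libraries left out, AMOT ran from -0.0103 to 0.125, MOB1A from -0.00256 to 0.0808, PTPN14 from -0.0691 to 0.129, YAP1 from -0.0451 to 0.0406, LATS2 from -0.00794 to 0.0728 and WWC3 from -0.0865 to 0.0237. YAP1 was also -0.00183 with upper-quartile factors, -0.00055 with no filter, and -0.00278 and -0.00285 with limma. For all genes the count was 1937 to 5928 with a library left out and 1720 at an adjusted p under 0.01. For transcripts of the scaffold genes it was 1 with DESeq2. The cause of these shifts was not tested. WWTR1 was -3.57 to -3.47 with a library left out.

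Deviations of same-numbered libraries from their group means correlated at -0.0173, 0.00865 and 0.0698. Those of differently numbered libraries correlated at -0.0951 to 0.100. With 3 libraries per group, these values cannot decide if the replicate numbers pair the libraries. The replicate block gave 5122 calls among all genes and 6 among the scaffold genes, MOB1B passing at 0.19 (adjusted p = 0.0126), or at 0.12 (adjusted p = 0.0383) with the GC correction as well. Counts were fewest for WWC1 and AMOT, and transcripts varied most between replicates.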
